A study of Mus musculus with 5 samples.

Results

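Nkx2-1, Nkx2-2, Nkx2-4, Nkx2-9 and Nkx6-2, homeobox transcription factor genes of the ventral forebrain, were followed cell by cell in the developing mouse ocular area. They were chosen by symbol, 5 of the 27998 genes in the matrix, and all 5 had UMIs (counts of distinct RNA molecules). Per the labels, the material was 1 wild-type C57BL/6J embryo at each of 5 stages (12, 16, 20, 24 and 26 somites), with the paired optic areas of an embryo pooled, and it was read by droplet single-cell sequencing of RNA 3′ ends. A single matrix pools all samples under barcode suffixes that name no stage, so the 5 suffixes are called libraries 1 to 5, no stage was assigned to any of them, and stages were not compared. Every interval given is a 95% interval that covers counting error only, because each stage had a single embryo and cells are not replicates. No p-value is given.

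Sonic hedgehog, a secreted signal from the axial midline, is known to induce Nkx genes in the ventral neural tube. Their products are transcription factors, many of them repressors, that set borders against factors of more lateral and dorsal progenitors such as Pax6. In the forebrain Nkx2-1 is known as a determinant of the hypothalamus and of the medial ganglionic eminence. Nkx2-4 is its closest relative, with a similar hypothalamic domain. Nkx2-2 and Nkx2-9 are close relatives that act beside the floor plate, and Nkx6-2 is known for patterning ventral spinal cord progenitors.

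The annotation (GENCODE M21, build GRCm38) places 4 of the 5 genes in neighbouring couples, all on the minus strand. Nkx2-1 lies at chr12:56531958-56536908 and Nkx2-9 at chr12:56611389-56613284, with 74.5 kb between them. Nkx2-4 lies at chr2:147083316-147085445 and Nkx2-2 at chr2:147177546-147194243, with 92.1 kb between them. Nkx6-2 stands apart at chr7:139579376-139582797. Genes on the opposite strand overlap Nkx2-1 (Gm26973), Nkx2-2 (Nkx2-2os and 6430503K07Rik) and Nkx6-2 (Inpp5a), and whether counting used strand is not given in the sources used here. The 250 bases before the start of the chromosome 12 couple are shown because these neighbours had similar patterns over the cells. They are RefSeq sequence of build GRCm38.p6, printed on the gene's strand, and capitals mark CCACCCA, the core of the motif bound by the GLI factors that answer Hedgehog signalling.

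Nkx2-1, chr12:56536909-56537158: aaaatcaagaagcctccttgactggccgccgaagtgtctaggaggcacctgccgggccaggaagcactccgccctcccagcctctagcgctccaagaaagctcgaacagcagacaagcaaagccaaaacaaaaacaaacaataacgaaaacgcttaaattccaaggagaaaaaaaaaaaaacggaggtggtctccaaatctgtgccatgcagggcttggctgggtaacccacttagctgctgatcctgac

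Nkx2-9, chr12:56613285-56613534: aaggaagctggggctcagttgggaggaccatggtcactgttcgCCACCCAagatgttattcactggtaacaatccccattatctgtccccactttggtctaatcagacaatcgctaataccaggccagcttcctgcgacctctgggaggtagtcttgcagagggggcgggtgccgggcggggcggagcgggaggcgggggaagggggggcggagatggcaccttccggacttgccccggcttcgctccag

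The full motif searched on both strands, GACCACCCA, was in 0 of the 5 members' windows of this length and in 0.225% of 32851 promoters. The core, chosen after the windows had been read and contained within the full motif, was in the Nkx2-9 window only, 207 bases before the start, and in 8.11% of all promoters. A match describes letters and not a site.

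After filters, 8106 of 8194 barcodes were kept, and 3744 cells were neuroepithelium, named from markers such as Sox2 and Pax6. Libraries 1 to 5 gave 527, 743, 979, 633 and 862 of these cells, with median depths from 25150 UMIs (library 2) to 31817 (library 3). The libraries shared 40 barcode sequences. Clusters low in the nuclear RNA Malat1 (776 cells, of which 584 had neural markers) and an unnamed cluster of 224 cells with a median of 58181 UMIs were kept out of all classes. Doublet calling marked 0.808% of barcodes, less than the 6% expected, and 0.403% in library 4, so undetected doublets may remain.

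All 5 genes were found mainly in neuroepithelium, and library 5 held almost none of them except Nkx6-2. Shares are of neuroepithelial cells with at least 1 UMI after each cell was thinned at random to 10000 UMIs, which left 3648 cells. Nkx2-1 was in 9.92%, 33.9%, 23.4%, 19.7% and 0.122% of cells in libraries 1 to 5. Nkx2-9 was in 11.7%, 18.0%, 19.6%, 12.3% and 0.122%. Both genes were thus found in libraries 1 to 4, and each in a single thinned cell of library 5. Nkx2-4 was in 1.19%, 5.33%, 2.66%, 5.21% and 0% of cells, and the count of 0 in 819 cells allows a share of up to 0.366%. Nkx2-2 was in 2.18%, 7.85%, 9.09%, 10.9% and 0.733%. Nkx6-2 was in 3.17%, 7.01%, 7.35%, 4.90% and 2.81%, and its interval in library 5 (1.79% to 4.18%) overlaps that of library 1. Without thinning the pooled shares were 25.5% for Nkx2-1, 19.4% for Nkx2-9, 6.41% for Nkx2-4, 12.7% for Nkx2-2 and 9.35% for Nkx6-2.

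**Figure D1:**
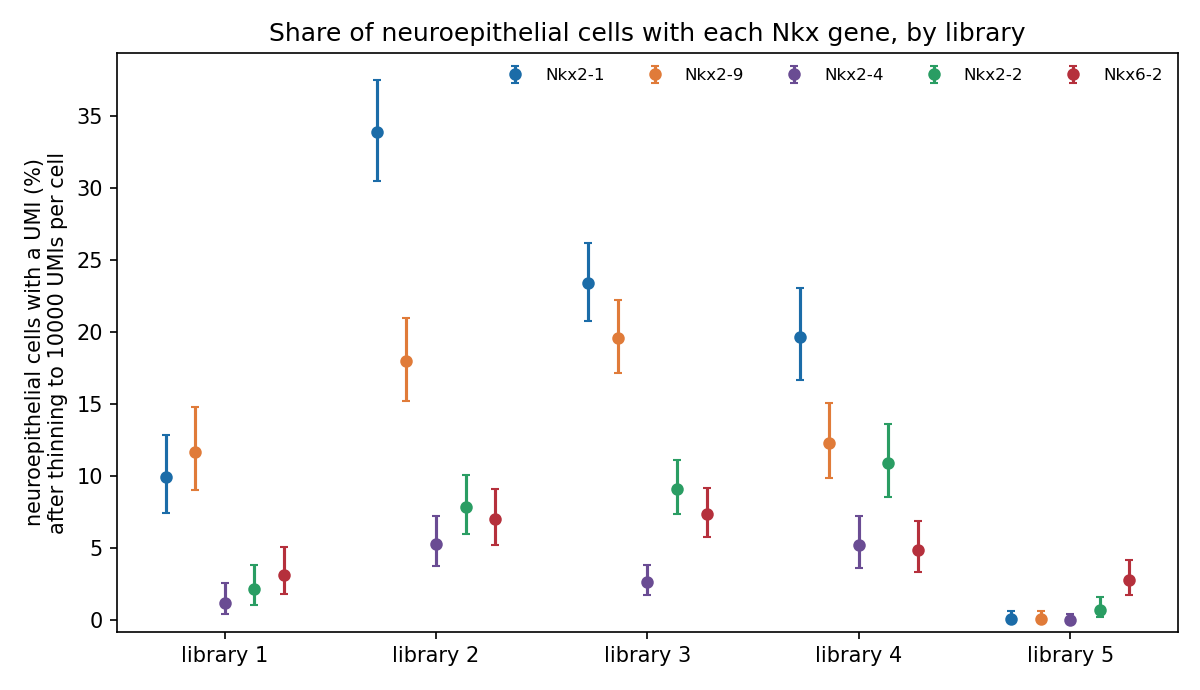
Share of neuroepithelial cells with a UMI of each gene (y axis, percent, after thinning to 10000 UMIs per cell) in the 5 libraries (x axis); points are shares and bars exact Clopper-Pearson 95% intervals. Nkx2-1 runs from 0.122% in library 5 to 33.9% in library 2, and Nkx6-2 is the gene with the highest share in library 5.

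Cells of other classes also held some UMIs of these genes. Without thinning, Nkx2-1 was in 0.515% of 388 endothelium-like cells, 1.19% of 253 erythroid-like cells, 1.74% of 1781 cranial neural crest mesenchyme-like cells and 3.22% of 435 head mesoderm-like cells. Nkx2-9 was in 0.773%, 0.791%, 1.01% and 2.99% of the same classes, and Nkx2-2, Nkx2-4 and Nkx6-2 were in at most 0.791% of each. Their median depths were 28136, 42576, 28414 and 24769 UMIs, beside 28649 in neuroepithelium. After thinning the highest shares among these classes were 0.93% for Nkx2-1 and Nkx2-9 (4 of 430 head mesoderm-like cells each), 0.233% for Nkx2-2 and 0.395% for Nkx6-2. In library 5 all 8 Nkx2-1 UMIs lay in 2 neuroepithelial cells, both in the sub-cluster named hypothalamus-like below. A first cell held 6 of them with 4 of Nkx2-2 and 5 of Shh, and the other held 2 with 10 of Nkx2-9, 8 of Nkx6-2 and 1 of Nkx2-2. The remaining 860 cells of that library had 0 UMIs of Nkx2-1, Nkx2-9 and Shh. The interval of Nkx2-2 in library 5 ran from 0.269% to 1.59%. That of Nkx6-2 lay above its thinned share in all 4 of the other classes.

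Surface ectoderm-like cells (219) held some Nkx2-1 (6.38 CPM, counts per 1000000 UMIs in the summed cells), Nkx2-9 (6.21 CPM) and Nkx2-2 (4.37 CPM), and 0 UMIs of Nkx2-4. Outside neuroepithelium, Nkx2-9 stood out in the cells named pituitary and other placode-like. Its level there was 20.6 CPM (17.4 to 24.2), and 37 of 217 cells (17.1%) had a UMI. By library the share was 25.0%, 18.1%, 14.5% and 13.3% in libraries 1 to 4, and library 5 had no such cells. Nkx2-1 was at 1.52 CPM in this class and Nkx2-4 at 0 UMIs. In a comparison made after these values were seen, the 37 Nkx2-9 cells also had more UMIs of Foxa2, a floor plate, notochord and endoderm factor (4.66-fold, 3.23 to 6.72), of Shh (4.92-fold, 3.79 to 6.41) and of the notochord gene T (5.94-fold, 4.11 to 8.65) than the other 180. Foxa2 was in 62.2% of the Nkx2-9 cells and 15.6% of the others. Shh was in 16.2% and 7.78%, and T in 5.41% and 1.67%. Few cells thus carried Shh or T, and the intervals of these ratios do not cover the spread between cells. The axial genes Noto and Ferd3l were at 0 in both sets.

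Within neuroepithelium the 5 genes differed in where they were highest. The cells were clustered again with all Nkx and Hedgehog genes left out, giving 15 sub-clusters, most of them from a single library, so a sub-cluster and its library cannot be told apart. Levels below are CPM of summed UMIs and compare a gene with itself.

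Nkx2-1 was highest in sub-clusters 0, 4 and 8, at 201 CPM (187 to 215), 159 CPM (151 to 168) and 148 CPM (132 to 164), and the intervals of the last pair overlap. Sub-cluster 0, led by Dbx1, Hesx1 and Foxa2, came from libraries 1 and 2. Sub-cluster 4 was hypothalamus-like by Shh, Fgf10, Tbx3 and Six6 and came from libraries 2, 3 and 4. Sub-cluster 8, led by Dbx1 and Amot, came mostly from library 4. At least 1 of the 5 genes was in 86.5%, 89.9% and 91.4% of their thinned cells in turn. In the hypothalamus-like cells Nkx2-1 was at 210, 123 and 159 CPM in libraries 2, 3 and 4.

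Nkx2-9 was also highest in sub-cluster 0, at 167 CPM (155 to 180), but its level there was 279 CPM in library 1 and 80.8 CPM in library 2, while Nkx2-1 was at 160 and 239 CPM in the same libraries. Of this couple, Nkx2-9 was thus higher in library 1 and Nkx2-1 in library 2. Nkx2-9 came next in the hypothalamus-like cells at 72.6 CPM, then at 66.2 CPM (61.5 to 71.1) in sub-cluster 7 of library 3, at 42.4 CPM in sub-cluster 8 and at 37.4 CPM (32.9 to 42.3) in sub-cluster 12 of library 4, which had Olig2 among its leading genes.

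Nkx2-4 was highest in sub-cluster 8 at 34.3 CPM (27.3 to 42.7), then in the hypothalamus-like cells at 15.9 CPM (13.4 to 18.7) and in sub-cluster 0 at 9.72 CPM (6.95 to 13.2), and these intervals do not overlap. Nkx2-2 was highest in the hypothalamus-like cells at 35.4 CPM (31.7 to 39.5), with 26.1, 32.6 and 55.9 CPM in libraries 2, 3 and 4. Sub-clusters 12 and 7 followed at 16.7 CPM (13.8 to 20.1) and 14.2 CPM (12.0 to 16.5), which overlap. Nkx6-2 was highest in the same hypothalamus-like cells at 38.0 CPM (34.2 to 42.2), with 25.4, 46.2 and 34.9 CPM by library, then in sub-cluster 3, mostly of library 2, at 13.4 CPM (11.3 to 15.7). It was at 0 UMIs in the Wnt8b and Emx2 sub-cluster 2.

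**Figure D2:**
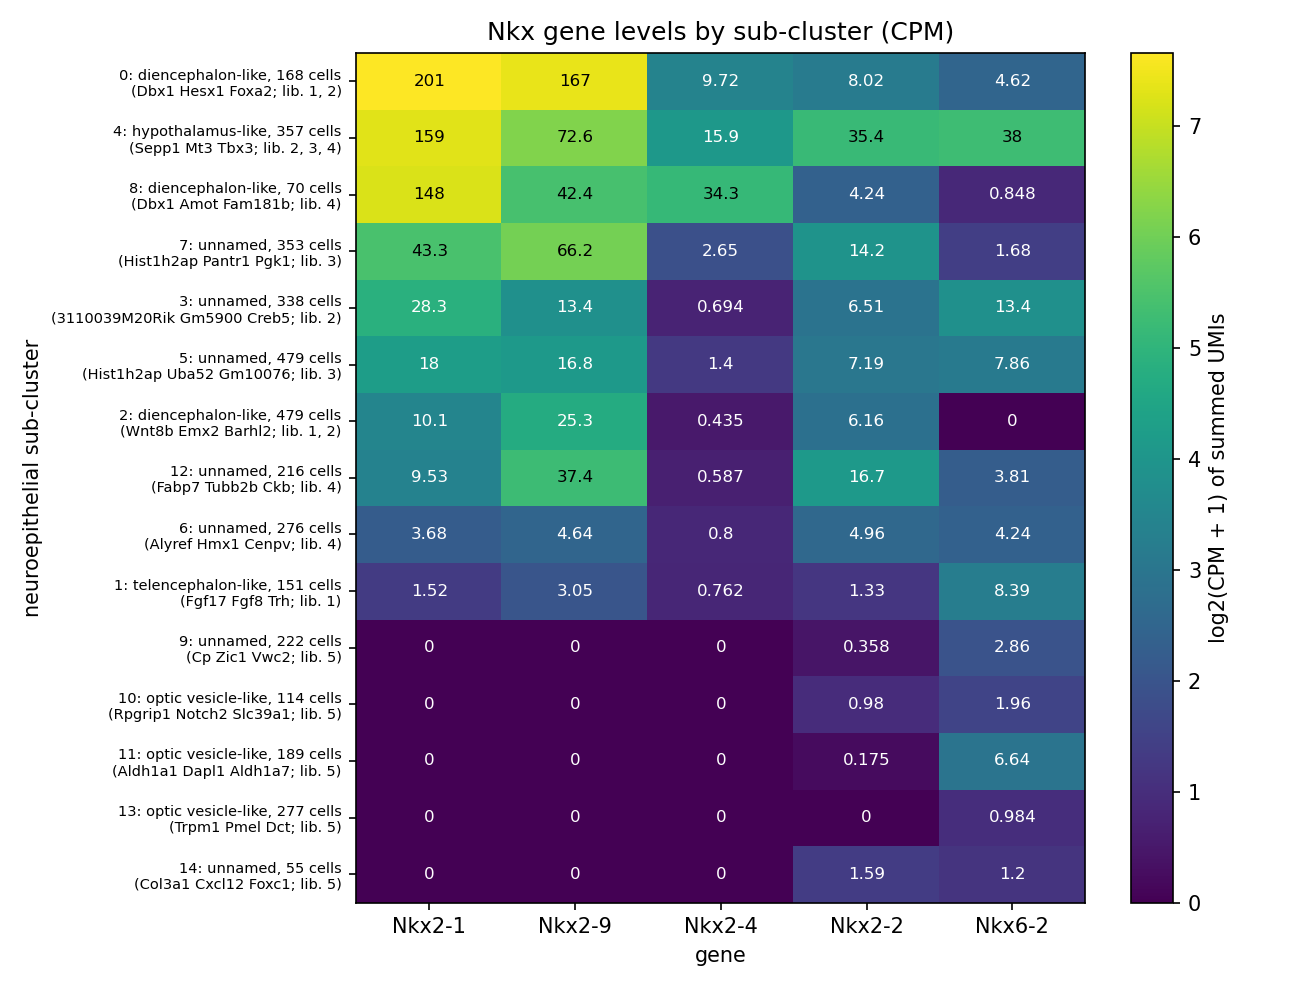
Level of each gene (columns; CPM printed, colour log2 of CPM + 1) in the 15 neuroepithelial sub-clusters (rows, ordered by Nkx2-1, with cells, leading genes and the libraries that gave 20 or more cells). Nkx2-1 and Nkx2-9 peak in sub-cluster 0, Nkx2-4 in sub-cluster 8, and Nkx2-2 and Nkx6-2 in sub-cluster 4.

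Optic vesicle-like cells, nearly all from library 5, had 0 UMIs of Nkx2-1, Nkx2-4 and Nkx2-9. Against a floor of 3 counts over that class, the hypothalamus-like level was 952-fold higher for Nkx2-1, 94.9-fold for Nkx2-4 and 434-fold for Nkx2-9. The intervals of the ratios began at 773, 76.2 and 352 in turn. Nkx6-2 was still found in optic vesicle-like cells at 2.90 CPM, 13.1-fold lower (9.78 to 17.9). No library had 20 cells of both classes, so class and library cannot be told apart here. Sub-cluster 6, with Vax2 and Hmx1 among its leading genes, had too few markers for a name and came mostly from library 4. Its 263 cells of that library had Nkx2-1 at 3.71 CPM and Nkx2-9 at 4.78 CPM, so the 0 counts hold for the class as named. Against diencephalon-like cells, the hypothalamus-like ratio was 2.46 for Nkx2-1 (2.28 to 2.65) and 36.7 for Nkx6-2 (23.7 to 60.1), each higher in 2 of 2 libraries, and 1.40 and 111 without library 1. The diencephalon-like class joins sub-clusters 0 and 8, rich in Nkx2-1, with the Wnt8b and Emx2 sub-cluster 2. In library 2 Nkx2-1 was at 239 CPM in sub-cluster 0 and 28.3 CPM in sub-cluster 2, beside 210 CPM in the hypothalamus-like cells. In library 4 it was at 140 CPM in sub-cluster 8, beside 159 CPM. The Nkx6-2 ratio depends on where the sub-clusters are divided. It was 0.481 (0.0918 to 1.61) when genes found in few cells were let into the clustering, where the class so named was led by Tbx3 and Fgf10.

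The pattern most like each gene's own was read over the 15 sub-clusters among 8636 genes, as Pearson's r of log2(CPM + 5), with libraries and depth shared by all genes. For Nkx2-1 the closest were Shh (0.94), Pou3f4 (0.94), Spon1 (0.92), Nkx2-9 (0.92) and Rbm24 (0.89). For Nkx2-9 they were Pou3f4 (0.93), Nkx2-1, Dpysl4, Sall3 and Vta1, and for Nkx2-4 Apela (0.99), Asb4, Shh, Amot and Necab1. For Nkx2-2 they were Dpysl4 (0.88), Pacsin2, Pou3f1, Dnajb1 and Rhpn1, and for Nkx6-2 Car10 (0.90), Nrcam, Timp4, Serinc2 and Ccdc160. Nkx6-2 shared no gene with another member's 5.

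Single cells often held more than 1 member. After thinning, 1031 of 3648 cells (28.3%) had at least 1 of the genes and 460 had at least 2, while 0 cells had all 5. Nkx2-1 alone (283 cells), Nkx2-1 with Nkx2-9 (161 cells) and Nkx2-9 alone (125 cells) were the commonest sets. Nkx2-1 and Nkx2-9 met in 249 cells, where the product of their shares gives 81.2. Nkx2-1 was in 72.8% of Nkx2-4 cells (63.2% to 81.1%) against 17.7% of all cells, and in 90.8% without thinning. Nkx2-2 and Nkx2-9 met in 125 cells against a product of 29.0, and Nkx2-2 and Nkx6-2 in 53 against 12.2. Nkx2-4 and Nkx6-2 met in 2 cells against 5.42, and the interval of that share (0.236% to 6.84% of Nkx2-4 cells) includes the overall 5.26%. Without thinning they met in 19 cells against 22.4, a ratio of 0.847 (0.517 to 1.29), so over all neuroepithelium this couple was not distinguishable from its product.

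Within the 346 thinned hypothalamus-like cells some pairs met more and some less often than the product of their shares. Nkx2-2, Nkx2-9 and Nkx6-2 met one another more often than their products: 50 cells against 29.2 for Nkx2-2 with Nkx2-9, 42 against 17.6 for Nkx2-2 with Nkx6-2, and 41 against 23.5 for Nkx2-9 with Nkx6-2. Each of these counts was above its product in libraries 2, 3 and 4 taken singly. Nkx2-4 met Nkx6-2 in 1 cell against 8.29 and Nkx2-9 in 6 against 13.7, while with Nkx2-2 its ratio was 0.485 (0.16 to 1.09). Without thinning, Nkx2-4 and Nkx6-2 met in 6 of the 357 cells against a product of 25.3. Nkx2-1 was in 34 of 41 Nkx2-4 cells (82.9%) and in 35 of 70 Nkx6-2 cells. Its ratio to the product was 1.18 with Nkx2-4 (0.834 to 1.6) and 0.835 with Nkx2-2 (0.638 to 1.06), and both intervals include 1. The excess of Nkx2-1 with Nkx2-9 over all neuroepithelium was not seen inside this sub-cluster (78 cells against 81.5).

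**Figure D3:**
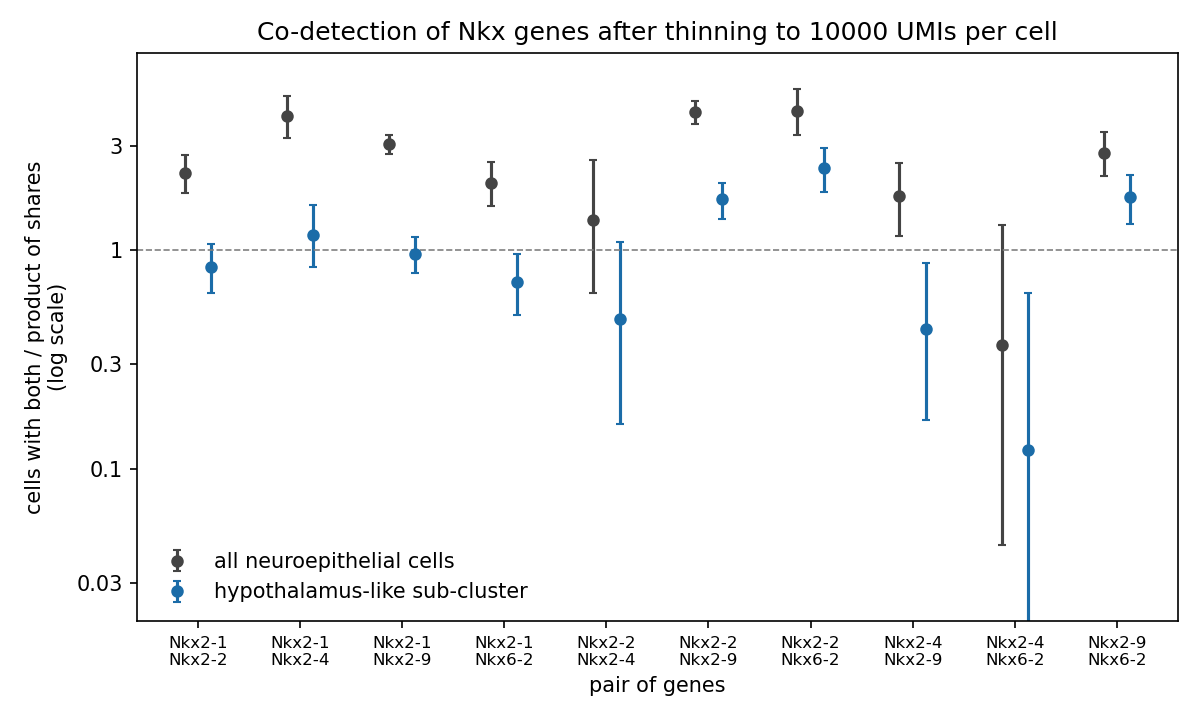
Cells with both genes of a pair divided by the product of their shares (y axis, log scale; the dashed line marks a ratio of 1) for the 10 pairs (x axis), in all neuroepithelial cells (grey) and in the hypothalamus-like sub-cluster (blue); bars are exact 95% binomial intervals of the share, divided by the overall share. Nkx2-4 with Nkx6-2 is lowest in both, and Nkx2-2, Nkx2-9 and Nkx6-2 stay above the line with one another.

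Neuroepithelial cells with Nkx2-1 (953) were next compared with those without it (2791), using a size rule: a 2-fold ratio of CPM either way, an interval excluding 1, at least 10 CPM on the higher side and the same direction in every library with 20 cells on both sides (libraries 1 to 4). Of 12848 genes tested, 0.405% were higher and 0.498% lower. All 4 other members were higher: Nkx2-4 33.8-fold (23.0 to 51.6), Nkx2-9 11.9-fold (10.9 to 13.0), Nkx6-2 4.52-fold (3.95 to 5.18) and Nkx2-2 4.46-fold (3.94 to 5.07). Nkx2-4 fell under the 10 CPM needed when library 2 or 4 was left out, at ratios of 35.7 and 28.6, and its ratio was 59.4 without library 3. Library 5 gave 2 Nkx2-1 cells and 860 others. Without it all 4 ratios were lower, at 24.4, 8.56, 3.94 and 3.27 in the order above.

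Of 15 Hedgehog genes tested, 2 were higher in Nkx2-1 cells. The ligand gene Shh was at 86.1, 112, 29.9 and 52.3 CPM in the Nkx2-1 cells of libraries 1 to 4, against 0.535, 6.32, 1.61 and 1.55 CPM in the others. The sets did not overlap, and pooled the ratio was 37.1 (31.4 to 44.2), or 26.8 without library 5. Ptch1, a receptor gene that the pathway itself induces, was 3.36-fold higher (3.17 to 3.55), and 3.54-fold without library 5. The effector Gli3, mainly a repressor, was 2.20-fold lower (2.03 to 2.38), and the co-receptors Cdon and Gas1 were 3.74-fold and 3.40-fold lower. Cdon was under the rule's CPM without library 5, at a ratio of 0.391. The median log2 ratio of the list was -0.17, beside -0.05 over all genes tested.

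Of 20 ventral and hypothalamic genes tested, Foxa2 (12.5-fold, 10.5 to 15.1), the hypothalamic T-box gene Tbx3 (2.91-fold) and the ventral progenitor gene Olig2 (2.23-fold) were higher and 0 lower. Tbx3 was at 2.05, 47.3, 11.0 and 11.8 CPM in the Nkx2-1 cells of libraries 1 to 4, against 1.14, 6.24, 3.49 and 6.82 CPM. Library 5 added 362 Tbx3 UMIs to the other cells and 1 to the Nkx2-1 cells. The pooled Tbx3 ratio was 1.48 without library 2, where the call was lost, and 4.71 without library 5. Foxa2 was 20.6-fold higher without library 2, and Olig2 had 1.73 without library 5. Of 30 optic and dorsal genes tested, 3 were higher and 6 lower. The higher ones were the progenitor factor gene Dbx1 (45.2-fold, 38.0 to 54.2), Hesx1 (5.13-fold) and Lhx5 (3.00-fold). Without library 1 the Hesx1 ratio was larger, at 8.03, but the call was lost, and without library 3 the Dbx1 ratio was 69.4. Without library 5 the ratios were 32.9 for Dbx1, 3.76 for Hesx1 and 2.2 for Lhx5. The lower ones were the optic genes Pax6, Pax2 and Vax2 and the dorsal genes Dmrta2, Rspo3 and Zic1. Without library 5, Vax2 stood at 0.351 of the level in the others (0.169 with it) and Pax2 at 0.406 (0.226 with it). Pax6 was at 31.8, 57.4, 99.0 and 75.0 CPM in the Nkx2-1 cells of libraries 1 to 4 against 177, 229, 225 and 282 CPM in the others. After thinning, Pax6 was in 16.1% of Nkx2-1 cells and 77.2% of the others.

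**Figure D4:**
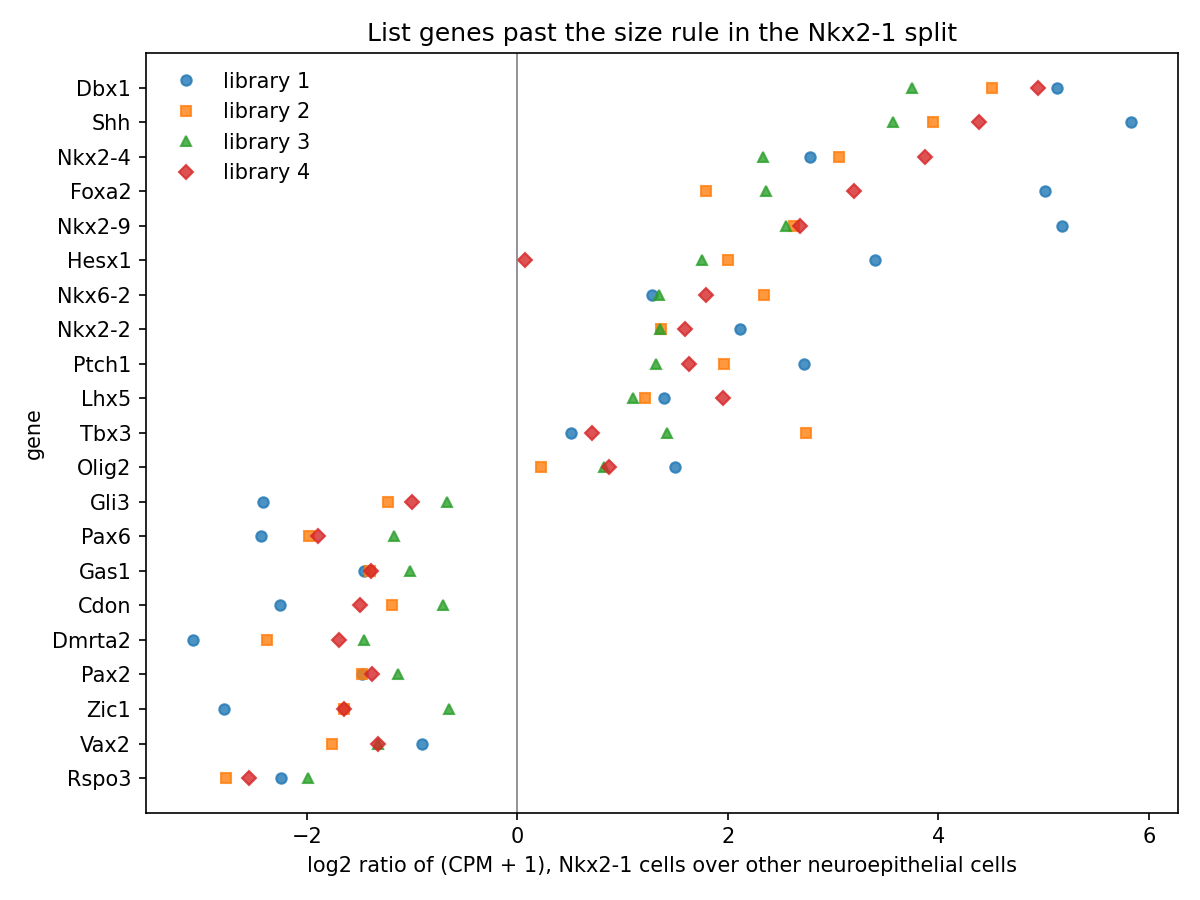
log2 ratio of CPM (1 added to both sides) between Nkx2-1 cells and other neuroepithelial cells (x axis) for the 21 list genes past the size rule (y axis), with a symbol for each of libraries 1 to 4. All points of a gene lie on the same side of 0, as the size rule requires. Hesx1 in library 4, with 1 UMI against 2, lies just above it.

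Floor plate and axial markers summed to 92.3 CPM in Nkx2-1 cells and 15.2 CPM in the others, with 2 of 9 higher (Foxa2 and Shh) and Noto at 0. Pituitary and other placode markers summed to 32.2 and 11.8 CPM, with 1 of 8 past the rule (Hesx1). Endoderm markers summed to 41.8 and 11.5 CPM, with Foxa2 alone past the rule, and neuron markers to 108 and 62.4 CPM, with Elavl3 alone past it. Their part in the result was not tested.

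The same split was made by each other member, and these splits share most of their cells, so their values are given side by side. Among the members, Nkx2-1, Nkx2-2 and Nkx6-2 were higher in Nkx2-9 cells, and Nkx2-1, Nkx2-9 and Nkx6-2 in Nkx2-2 cells. Only Nkx2-1 was higher in Nkx2-4 cells, and only Nkx2-2 and Nkx2-9 in Nkx6-2 cells. The remaining members did not pass in these splits. In Nkx2-9 cells (0.28% of genes higher and 0.444% lower), Foxa2 (15.7-fold, 13.1 to 18.8), Shh (6.17-fold), Olig2 (3.46-fold), Dbx1 (3.40-fold) and Ptch1 (3.10-fold) were higher, as were Hesx1 and Lhx5. Gli3, Cdon, Gas1, Pax6, Pax2, Vax2, Dmrta2, Rspo3, Zic1 and Wnt8b were lower, and of these Wnt8b had not passed in the Nkx2-1 split. Nkx2-4 cells (0.389% higher and 0.436% lower) had more Fgf10 (12.5-fold, 10.1 to 15.4), Dbx1 (6.71-fold), Shh (6.37-fold), Tbx3 (4.86-fold), Ptch1 (2.48-fold), Lhx5 (2.34-fold), Fgf8 (2.29-fold) and Foxa2 (2.19-fold). They had less Cdon and Gas1 and less of the optic and dorsal genes Pax6, Pax2, Vax2, Dmrta2, Rspo3 and Zic1, and Gli2 was lower too.

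Nkx2-2 cells (0.14% higher and 0.272% lower) had more Olig2 (4.15-fold, 3.65 to 4.72), Foxa2 (3.17-fold) and Ptch1 (2.50-fold). Fgf8 was at 0.351 and Bmp4 at 0.284 of the level in the others, and Cdon, Gas1, Vax2, Emx2, Dmrta2, Wnt8b, Rspo3 and Zic1 were lower as well. Nkx6-2 cells (0.179% higher and 0.218% lower) had more Six6, an eye and hypothalamus gene (2.08-fold, 2.01 to 2.14), with 0 of 15 Hedgehog genes past the rule. Dbx1 (0.308) and Lhx5 (0.427), higher in Nkx2-1 cells, were lower in Nkx6-2 cells, as were Bmp4, Otx1, Emx2, Dmrta2 and Rspo3.

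After the counts of shared cells had been seen, Nkx2-4 and Nkx6-2 cells of the hypothalamus-like sub-cluster were set against each other: 86 cells with Nkx2-4 and no Nkx6-2 against 92 with Nkx6-2 and no Nkx2-4, with the direction read in libraries 2 and 3. Of 7053 genes tested, 1.5% were higher and 1.04% lower in the Nkx2-4 cells. Those cells had more Fgf10 (60.4 against 0.414 CPM), Tbx3 (120 against 2.48 CPM) and Fgf8 (47.7 against 6.62 CPM), signal and T-box genes of the hypothalamic floor. Bmp4 was at 41.0 CPM against 0 UMIs, which is 33.0-fold against a floor of 3 counts, with an interval that began at 26.4. Lhx5 (10.1-fold), Hesx1 (7.61-fold), Otx2 (4.84-fold), Rax (3.12-fold), Fezf2 (2.3-fold) and Fezf1 (2.28-fold) were higher too. Of other genes in the optic and dorsal list, Six3 (0.862), Lhx2 (1.78) and Dbx1 (0.834) did not pass. The Nkx6-2 cells had more Six6 (2.14-fold) and Bmp7 (3.92-fold). They also had 7.25-fold more Nkx2-2 and 7.53-fold more Nkx2-9, which restates the shared-cell counts that led to this contrast. Nkx2-1 and the 6 Hedgehog genes tested did not pass. Fgf10 and Tbx3, which helped to name this sub-cluster hypothalamus-like, were thus low in its Nkx6-2 cells. Of the other naming markers, Six6 was higher in those cells and Shh was at 84.8 CPM, against 112 CPM in the Nkx2-4 cells.

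**Figure D5:**
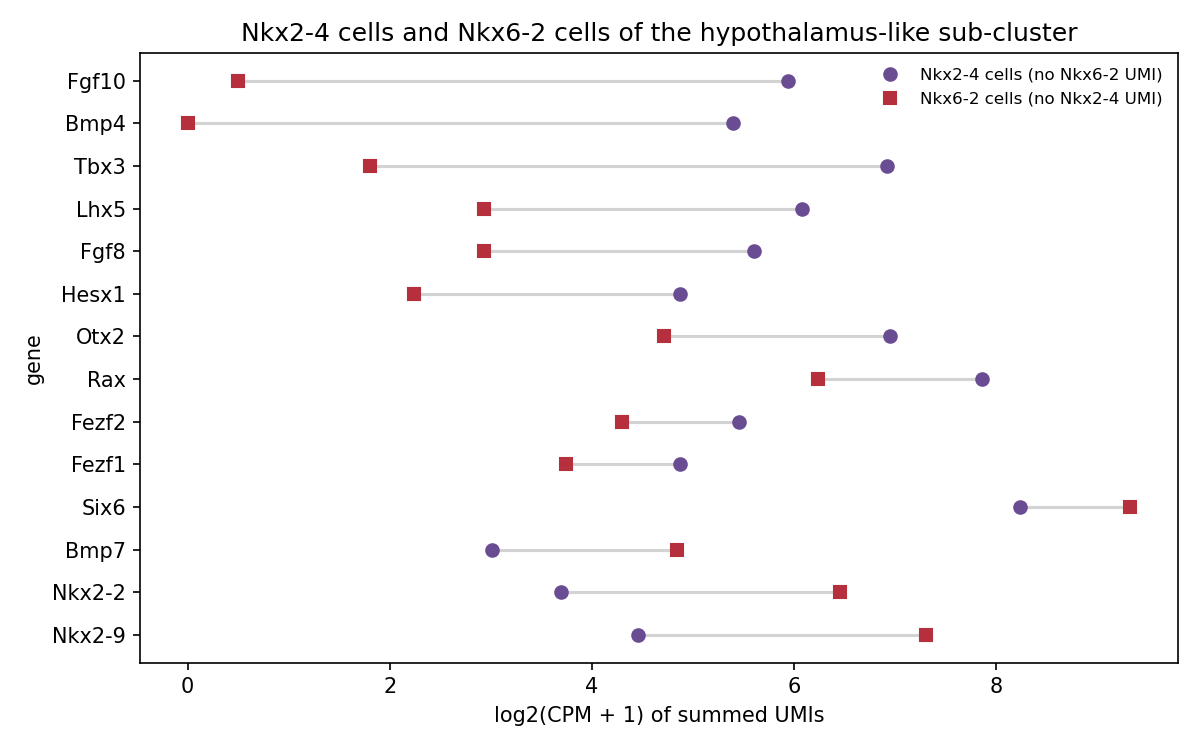
log2(CPM + 1) (x axis) of 14 list genes past the size rule (y axis) in Nkx2-4 cells (circles) and Nkx6-2 cells (squares) of the hypothalamus-like sub-cluster. Fgf10, Bmp4 and Tbx3 lie far to the right in Nkx2-4 cells, and Nkx2-2 and Nkx2-9 in Nkx6-2 cells.

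The same contrast over all neuroepithelial cells, which needs no sub-cluster, set 221 Nkx2-4 cells against 331 Nkx6-2 cells, with 0.533% of 10126 genes higher and 0.514% lower. Fgf10 (19.6-fold), Tbx3 (10.8-fold), Bmp4 (5.91-fold), Dbx1 (17.4-fold), Shh (3.64-fold) and Nkx2-1 (2.50-fold) were higher in Nkx2-4 cells in libraries 2, 3 and 4, and Otx2 (2.15-fold) was higher too. Dbx1, Shh and Nkx2-1 had not passed inside the sub-cluster. Lhx5 (5.45-fold) and Fezf2 (3.65-fold) passed again. Several calls of the sub-cluster did not pass here: Fgf8 was at a ratio of 1.10, Rax at 1.32, Hesx1 at 2.16, Fezf1 at 1.61, Nkx2-9 at 0.590 and Bmp7 at 0.596. Six6 and Nkx2-2 were lower, at 0.408 and 0.297 of the Nkx6-2 cells' level. Among Hedgehog genes other than Shh, Gli1 (0.426) and Gli2 (0.443) were lower in Nkx2-4 cells, and Ptch1 (1.28) did not pass. In the optic and dorsal list, Wnt8b (19.1-fold), Emx2 (6.78-fold) and Otx1 (2.48-fold) were higher as well. Vax2 (0.259), Pax2 (0.205) and Zic1 (0.151) were lower.

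Neighbouring genes were compared in the same splits. Mbip, on the other side of Nkx2-1, was 2.07-fold higher (1.95 to 2.21) in Nkx2-1 cells and past the rule. Nkx2-2 cells had 1.74-fold more Nkx2-4 (1.35 to 2.22), higher in 2 of 4 libraries, which did not pass. Pax9, beyond Nkx2-9, had 10 UMIs in neuroepithelium, and Pax1, beyond Nkx2-2, had 2. Of 10 other genes with an Nkx symbol, 2 had enough UMIs to be tested in the Nkx2-1 split, and neither Nkx6-1 nor Nkx2-3 passed.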

How the data were processed

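The deposited matrix holds UMI counts per gene and barcode, with Cell Ranger and the build mm10 (GRCm38) named in the submitters' processing notes. The sources used here give neither its version nor its rule for calling cells. Filters (1000 genes or more, mitochondrial share up to 10%) and Scrublet, with an expected doublet rate of 6%, came before clustering in scanpy 1.11.5 (2000 variable genes, 30 components, 15 neighbours, Leiden resolution 1). A name needed at least 3 markers with 10 UMIs and a 2-fold ratio after adding 5 CPM. This scoring, the Malat1 limit of 500 CPM, the landmark genes and the Nkx2-4 against Nkx6-2 contrast were set after values were seen. Members and lists were chosen with earlier results of these data known. Named genes were the members, list genes past the size rule and the 5 most alike genes per member. Thinning is a single random draw. Some list genes are not reported here. CPM, shares and ratios were computed here, and the size rule was tested on simulated data.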

Additional observations from a re-analysis of the deposited data

How the results depend on the processing

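The share of neuroepithelial cells with Nkx2-1, 17.7% after thinning to 10000 UMIs, was 13.4% at 5000, 21.7% at 20000, 25.5% unthinned and 10.4% with at least 2 UMIs required, and 13.8% to 22.8% leaving out each library. Thinning is random, and after a second draw had given other values the expected share over all draws was added as an alternative: 18.3% for Nkx2-1 and 2.70% for Nkx2-4, each within the interval of the draw reported. The Nkx2-1 ratio of hypothalamus-like to diencephalon-like cells, 2.46, was 3.21 and 1.59 at Leiden resolutions 0.5 and 2, 2.05 with Nkx and Hedgehog genes allowed in the clustering, 2.17 with doublets kept, 1.82 with libraries weighted equally, and 1.40 (without library 1) to 3.00 leaving out a library. The Nkx6-2 ratio, 36.7, was 12.3 and 7.10 at those resolutions and 29.5 to 111 leaving out a library. A clustering without the filter on genes in few cells, added after the data were seen, gave 1.66 for Nkx2-1 and turned the direction for Nkx2-2 (0.450) and Nkx2-9 (0.370). The Nkx6-2 ratio was under 1 there as well (0.481), but its interval given above includes 1. Nkx2-9 also turned at resolution 2 (0.676) and with the lists allowed in (0.900). The cause was not tested.

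Cells with Nkx2-1 and Nkx2-9 over the product of shares, 3.07, stood at 3.51 with at least 2 UMIs, 2.33 within diencephalon-like cells, 0.957 within hypothalamus-like cells and 2.39 to 3.84 leaving out a library. Within the hypothalamus-like class Nkx2-1 was also under its product with Nkx6-2 (0.712) and Nkx2-2 (0.835), though for Nkx2-2 the interval given above includes 1. Nkx2-4 was under its product with Nkx2-9 (0.437), and this last pair was at 0 with at least 2 UMIs. Nkx2-4 with Nkx6-2, 0.369, was 0 at 5000 UMIs, 6.61 (0.167 to 27.8) with at least 2 UMIs, 0 in diencephalon-like cells, 0.472 expected over all draws and 0 (without library 2) to 0.578 leaving out a library; counts this low limit it. The Nkx2-1 split called 52 genes higher and 64 lower. A 1.5-fold ratio gave 106 and 135, and a minimum of 20 CPM gave 35 lower. Leaving out a library gave 42 to 78 higher and 38 (without library 5) to 85 lower. Of 21 list genes called, 13 kept their call in every alternative. No paired analysis was possible because the labels give no replicate numbers and each stage had 1 sample.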
